A study of Mus musculus with 6 samples.

Results

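The genes described here are the replication-dependent histone genes, which encode the histones made in bulk while a cell copies its DNA. They were taken as all genes whose symbol starts with Hist1h, Hist2h, Hist3h or Hist4h, without use of any measured value, and sorted by histone type. Of 16832 genes with deposited values, 35 met this rule, against 70 genes with such symbols in the GENCODE M21 annotation, of which 67 are protein-coding. They were 5 of 6 annotated H1 genes, 2 of 20 H2A genes, 13 of 19 H2B genes, 6 of 12 H3 genes and 9 of 13 H4 genes. The other annotated histone genes were not analysed here, and the lowest mean of any gene in the deposited table was 6.1 normalized counts. All 35 genes passed the limit of a mean of 10 normalized counts set for the test, so none was left out by it.

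RNA was sequenced from mouse embryos at embryonic day 9.5, from which the region of the second heart field, a pool of heart progenitor cells, had been microdissected. The gain-of-function (GoF) group carried the genotype Hoxb1GOF;Mef2c-Cre, and the control group was CTRL Mef2c-Cre, so that both groups share the Mef2c-Cre transgene, in which a Mef2c enhancer directs the recombinase to progenitors of the second heart field. Values were available for 3 GoF libraries, replicates 1 to 3, and for 2 control libraries, replicates 2 and 3, while the remaining control, replicate 1, was not analysed here. The sample descriptions leave out how many embryos went into a sample and whether the controls carried the GoF allele without Cre, and p-values measure the spread between these libraries only. The dissected region holds more cell types than those in which Mef2c-Cre is active, and in bulk tissue fewer cells of a type and less RNA per cell cannot be told apart.

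Core histones H2A, H2B, H3 and H4 form the protein spool on which DNA is wound, and H1 binds the DNA between spools. Most messages of these genes carry no poly-A tail and end shortly after a short hairpin, the histone stem-loop, which is bound by the protein Slbp and governs their 3′ end processing, translation and decay. Cells raise these messages when they enter S phase and degrade them when DNA synthesis stops, and some of the genes can also give longer, polyadenylated messages. Although the labels call the material polyA RNA, their protocols describe first-strand synthesis from total RNA with random as well as poly-T primers, which can reach messages without a tail.

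The hairpin was searched in the longest annotated transcript of each gene as a stem of 6 base pairs and a loop of 4 bases, and 25 of the 35 held it. The first arm had to begin with GG, end in CT and pair fully with the second, so other stems would be missed. The 10 without it include Hist1h2ak, Hist1h2bl, Hist1h2bn, Hist1h3i and Hist1h4k, whose annotated transcripts are hardly longer than their coding sequences. In Hist1h2bl these have 381 and 378 bases. In such transcripts a hairpin past the coding sequence could not be found. The others without it were Hist1h1a, Hist1h1b, Hist1h2bc, Hist1h2bp and Hist2h2be, whose annotated transcripts go on further. The transcript of Hist2h2be has 2620 bases and its coding sequence 378, so its 3′ end was searched without a match. The hairpin is shown because it defines the end of these messages and because the annotated transcripts differ in how far they go on past it. Stem arms are in capitals, sequences are DNA letters of the transcript strand, and coordinates are of mm10.
Hist1h2bm (H2B, chr13:21722501-21722526, plus strand): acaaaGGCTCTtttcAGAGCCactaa
Hist1h2bb (H2B, chr13:23747198-23747223, plus strand): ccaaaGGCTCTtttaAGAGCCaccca
Hist1h1e (H1, chr13:23621777-23621802, minus strand): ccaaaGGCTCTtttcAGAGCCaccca
Hist1h4d (H4, chr13:23581945-23581970, plus strand): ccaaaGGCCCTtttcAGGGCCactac
Hist1h1c (H1, chr13:23739507-23739532, plus strand): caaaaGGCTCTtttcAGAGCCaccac
Hist1h2be (H2B, chr13:23585526-23585551, minus strand): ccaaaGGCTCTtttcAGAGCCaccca
Hist4h4 (H4, chr6:136803993-136804018, minus strand): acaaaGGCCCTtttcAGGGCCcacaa

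The first 4 of these genes were higher in GoF libraries by the test given below, and the last 3 did not pass it. The hairpin did not separate them: the 26 bases of Hist1h1e and Hist1h2be are the same letters, and the first was called higher while the other was not. The commonest form, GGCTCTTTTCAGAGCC, stood in 13 genes of types H1, H2A, H2B and H3, of which 5 were higher. All hairpins of H4 genes had other stems, most often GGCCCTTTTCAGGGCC, found in 4 genes of which 1, Hist1h4d, was higher. In Hist1h2bb the annotated transcript ends 23 bases after the hairpin and in Hist1h2bm 46 bases after it. In Hist1h1e it goes on for 1153 bases, in Hist1h1c for 840 and in Hist1h2be for 1861.

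The libraries held 34260116 to 44384354 reads. Hoxb1, the gene targeted by the design, had 751.6 and 610.2 normalized counts in the controls, against 1021.3, 1003.0 and 1041.2 in the GoF libraries (log2 fold change 0.59, SE 0.12, limma adjusted p = 0.0147), with no overlap between the groups. The log2 fold change of Hoxb1 did not pass without GoF replicate 1 (limma adjusted p = 0.0601) nor once the GC trend was removed (0.251). Of 16 second heart field markers 15 were tested, of which 3 were higher (20.0%, against 12.2% of all genes) and 2 lower (against 10.9%). Their summed level was 17382.9 to 18534.8 normalized counts over all 5 libraries. Mitochondrial genes took 50.7% and 44.4% of control reads and 35.7% to 37.4% of GoF reads. Fold changes followed GC content across all genes, from a median log2 fold change of -0.43 in the lowest of 10 GC bins to 0.66 in the highest. GoF replicate 1 lay between GoF replicates 2 and 3 for 22 of the 35 histone genes, and results that rest on it are also given without it.

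Histone messages were more abundant in the GoF libraries. The summed level of the 35 genes was 3252.5 and 3313.1 normalized counts in the controls, against 5907.3, 6413.3 and 5147.1 in the GoF libraries (mean 5822.6 ± 637.3, SD, n = 3), which is 1.77 times the control mean. The GoF libraries all lay above both controls. Of the 35 genes 14 were higher in GoF (40.0%, against 12.2% of the 16794 genes tested), 0 were lower (against 10.9%), and 21 did not pass (limma on log2(normalized count + 1), adjusted p under 0.05 over all genes tested). At an unadjusted p under 0.05 the numbers were 18 and 0, and the share of all genes was not counted there. DESeq2 called 14 higher and edgeR 13, against 13.2% and 12.4% of all genes. The DESeq2 calls held Hist1h2bk in place of Hist1h2bn (DESeq2 adjusted p = 0.0334 and 0.0547). The authors' deposited table also has 14 higher and 0 lower. The median log2 fold change was 1.05, with a range from -0.60 to 1.98, against -0.01 over all genes tested. In 22 genes every GoF library lay above both controls, which held for 27.3% of all genes tested, and in 1 gene, Hist2h2be, every GoF library lay below both controls, as in 27.6% of all genes tested.

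As a share of sequenced RNA the difference had the same direction. Reads of the 35 genes came to 62.5 and 77.3 RPM of all reads in the controls, against 168.0, 179.0 and 148.0 in the GoF libraries. With mitochondrial reads left out of the total, the values were 127.0 and 139.0 RPM in the controls, against 266.0, 286.0 and 231.0 in the GoF libraries. The groups stayed apart on both scales. Depth limits single genes: 14 of the 35 had a mean under 50 normalized counts, and the fewest reads of a gene in a library were 3.

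**Figure D1:**
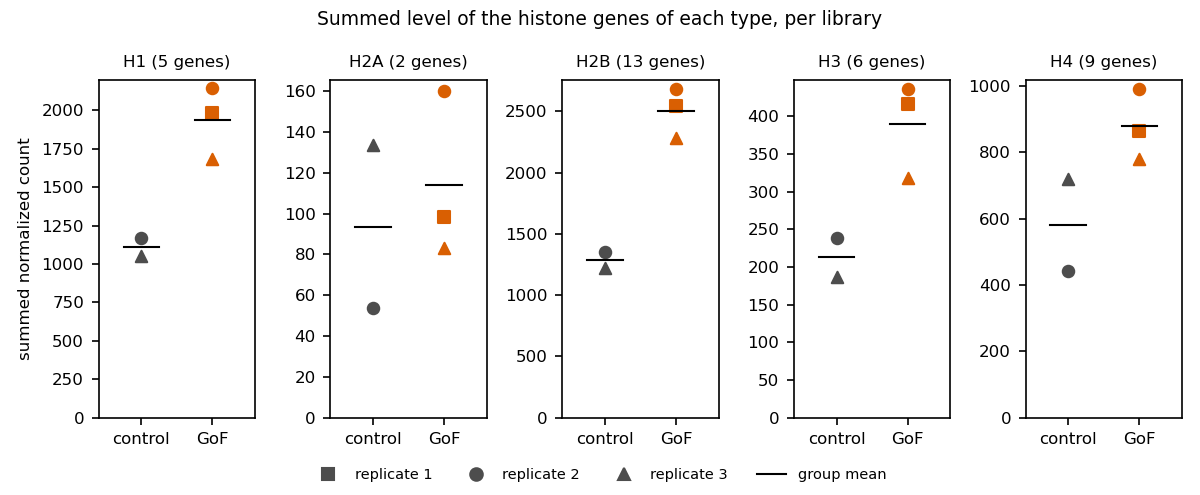
Summed normalized count of the histone genes of each type in each library, with control libraries in grey, GoF libraries in orange, marker shapes for the replicate number and black lines for group means. The groups do not overlap for H1, H2B, H3 and H4, while the 2 H2A genes overlap, with 53.9 and 133.5 in the controls, against 83.3 to 160.2 in the GoF libraries.

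Among the linker histones, 3 of 5 genes were higher and the median log2 fold change was 1.03. Their summed level was 1170.1 and 1052.0 normalized counts in the controls, against 1983.1, 2143.4 and 1685.2 in the GoF libraries. Hist1h1b (chr13:21779883-21780625, minus strand), which encodes H1.5, had 173.5 and 139.8 normalized counts in the controls, against 381.4, 438.4 and 360.0 in the GoF libraries. The lowest GoF value was above both controls, and the log2 fold change was 1.33 (SE 0.17, limma adjusted p = 0.00484). Hist1h1a, which encodes H1.1, was nearly the same in all libraries of a group, with 99.7 and 98.6 in the controls, against 232.8, 218.4 and 223.3 in the GoF libraries (log2 fold change 1.17, SE 0.18, limma adjusted p = 0.00665). No stretch of 50 bases of either transcript occurs in another annotated gene, so their counts do not depend on how reads of copies were shared out.

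Hist1h1e, which encodes H1.4, had 438.5 and 451.7 normalized counts in the controls, against 842.9, 903.5 and 716.8 in the GoF libraries. It was thus higher in each GoF library than in either control (log2 fold change 0.88, SE 0.13, limma adjusted p = 0.0068). Its annotated span shares 496 bases on the same strand with that of Hist1h2be, so the counts of both depend on how such reads were assigned. Hist1h1c, which encodes H1.2, had 416.2 and 330.7 in the controls, against 445.0, 490.2 and 328.5 in the GoF libraries. Its groups overlapped and it did not pass (log2 fold change 0.16, SE 0.20, limma adjusted p = 0.578). Hist1h1d, the remaining H1 gene, had a log2 fold change of 1.03 with a limma adjusted p of 0.0538, just above the threshold.

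H2B was the type with the most genes called: 7 of 13 were higher, and the median log2 fold change was 1.43. The summed level was 1348.4 and 1220.4 normalized counts in the controls, against 2544.0, 2682.9 and 2279.1 in the GoF libraries (mean 2502.0 ± 205.2, SD, n = 3). Hist1h2bl (chr13:21715763-21716143, minus strand) had 157.1 and 207.1 normalized counts in the controls, against 698.3, 708.5 and 607.6 in the GoF libraries. The lowest GoF library was far above the higher control, and the fitted difference between the groups was 3.70-fold (log2 fold change 1.89, SE 0.17, limma adjusted p = 0.00215). Its share of all histone reads went from 4.83% and 6.25% in the controls to 11.8% in GoF replicates 1 and 3 and slightly less in replicate 2. Of the 50-base stretches of its transcript 82.8% also occur in other annotated genes, so the gain of this locus cannot be told apart from gains of its copies.

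Hist1h2bm had 104.4 and 128.5 normalized counts in the controls, against 319.9, 347.0 and 277.5 in the GoF libraries, with wide separation of the groups (log2 fold change 1.43, SE 0.19, limma adjusted p = 0.00484). Hist1h2bb, named after its values were seen, had 121.9 and 96.1 in the controls, against 296.3, 317.1 and 286.4 in the GoF libraries (log2 fold change 1.46, SE 0.18, limma adjusted p = 0.00429). Hist1h2bg, also named after its values were seen, had 69.2 and 54.9 in the controls, against 185.6, 169.9 and 162.6 in the GoF libraries (log2 fold change 1.47, SE 0.22, limma adjusted p = 0.00631). In all of these H2B genes the GoF libraries lay close together and above both controls. The less abundant Hist1h2bh had 12.9 and 28.7 in the controls, against 62.5, 75.2 and 55.0 in the GoF libraries (log2 fold change 1.67, SE 0.41, limma adjusted p = 0.0253). Hist1h2bn had 17.6 and 8.7 in the controls, against 41.0, 42.1 and 32.4 in the GoF libraries, and its limma adjusted p of 0.0479 was just under the threshold.

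The H2B genes were not uniform. Hist1h2be had 484.2 and 329.4 normalized counts in the controls, against 450.2, 521.7 and 409.4 in the GoF libraries. Its groups overlapped, and the test was not passed (log2 fold change 0.20, SE 0.19, limma adjusted p = 0.479). Hist2h2be, on chromosome 3 and named after its values were seen, had 229.8 and 249.6 in the controls, against 200.0, 222.4 and 216.8 in the GoF libraries (log2 fold change -0.17, limma adjusted p = 0.472). On the scale of normalized counts per kilobase of coding sequence, averaged over all libraries, Hist1h2bl was at 1260, Hist1h2be at 1160, Hist1h2bm at 623 and Hist2h2be at 592. Per kilobase of the longest annotated transcript, the control and GoF means were 162 and 184 for Hist1h2be and 91.5 and 81.3 for Hist2h2be, against 478 and 1760 for Hist1h2bl and 222 and 601 for Hist1h2bm, so the order of these levels depends on the length used. Hist1h2bj, Hist1h2bp and Hist1h2bc, named after their values were seen, did not pass either, at log2 fold changes of 0.63, 0.63 and 0.79.

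**Figure D2:**
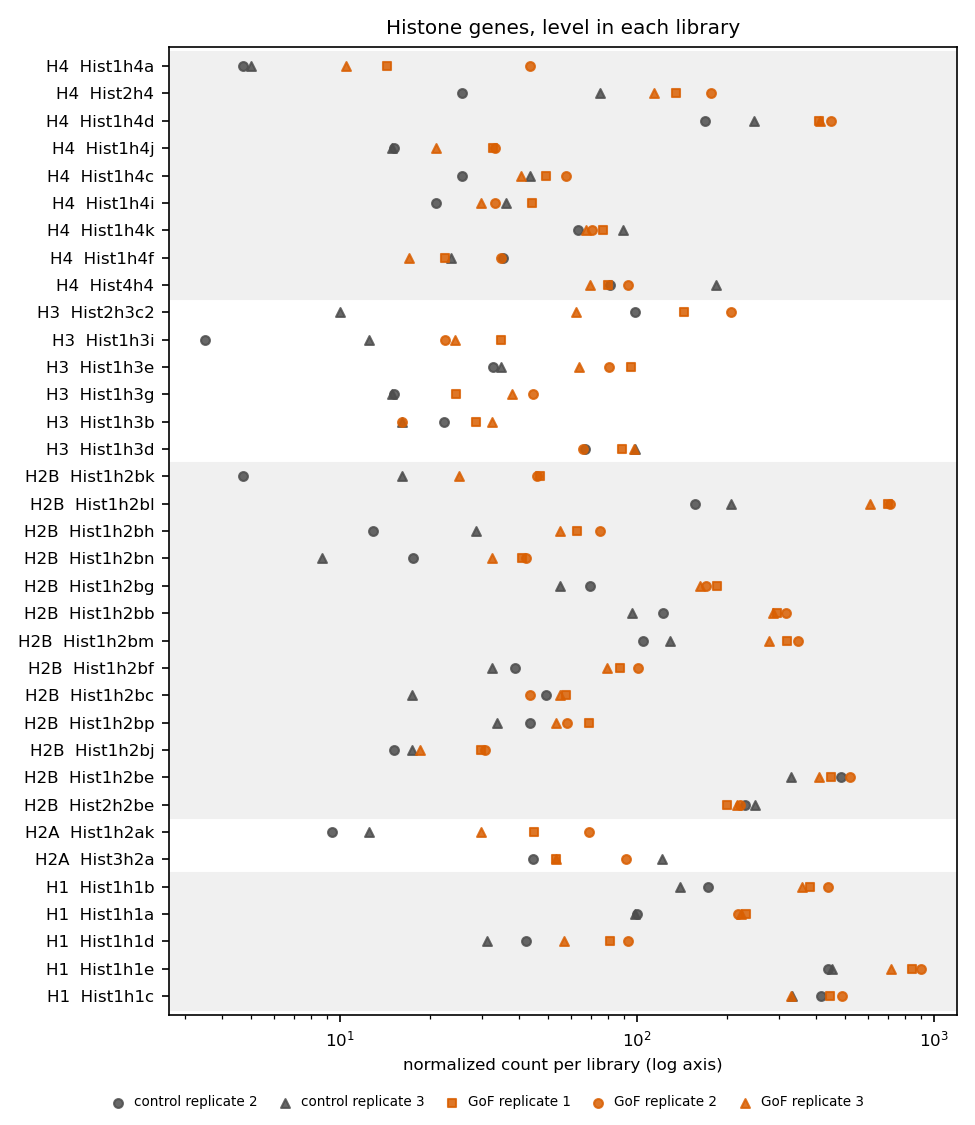
Normalized count of each of the 35 histone genes in each library on a log axis, grouped by histone type and, within a type, ordered by fold change. The 2 control libraries are grey and the 3 GoF libraries orange, and in 22 genes all orange points lie to the right of both grey points.

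The H2A type rests on 2 genes. Hist1h2ak had 9.4 and 12.5 normalized counts in the controls, against 45.1, 68.8 and 29.9 in the GoF libraries. All GoF values were above both controls (log2 fold change 1.97, SE 0.48, limma adjusted p = 0.0255). Hist3h2a, on chromosome 11, had 44.6 and 121.0 in the controls, against 53.3, 91.4 and 53.4 in the GoF libraries, with overlapping groups (log2 fold change -0.20, SE 0.45, limma adjusted p = 0.77). Its annotated span lies wholly within that of Trim17 on the same strand, so its count depends on how reads of this stretch were assigned. No statement on H2A as a type can rest on these counts.

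Of the 6 H3 genes 1 was higher, and the median log2 fold change was 1.17. Hist1h3e had 32.8 and 34.9 normalized counts in the controls, against 95.4, 80.1 and 63.9 in the GoF libraries, without overlap (log2 fold change 1.19, SE 0.29, limma adjusted p = 0.0257). Hist1h3d had 66.8 and 98.6 in the controls, against 89.2, 65.5 and 97.9 in the GoF libraries. Its control range contained nearly all of the GoF range, and the log2 fold change was 0.03 (SE 0.29, limma adjusted p = 0.946). Hist2h3c2 had 98.5 and 10.0 in the controls, against 143.6, 207.1 and 62.3 in the GoF libraries. With controls this far apart, a log2 fold change of 1.91 carried an SE of 0.94 and did not pass (limma adjusted p = 0.185). H3 coding sequences are nearly alike, and 24.8% to 87.6% of the 50-base stretches of these 6 transcripts occur in other genes.

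Of the 9 H4 genes 2 were higher, and the median log2 fold change was 0.52, the lowest of the 5 types. Hist1h4d (chr13:23581598-23582735, plus strand) had 168.8 and 247.1 normalized counts in the controls, against 410.2, 448.1 and 411.0 in the GoF libraries. Each GoF value was well above both controls (log2 fold change 1.05, SE 0.19, limma adjusted p = 0.0103). Hist2h4, on chromosome 3, had 25.8 and 74.9 in the controls, against 135.4, 177.1 and 114.1 in the GoF libraries (log2 fold change 1.64, SE 0.43, limma adjusted p = 0.0314). Its groups did not overlap, although its controls differed more than 2-fold. Hist4h4, a lone H4 gene on chromosome 6, had 80.9 and 184.7 in the controls, against 80.0, 93.0 and 69.6 in the GoF libraries. Control replicate 3 alone was high there, and the gene did not pass (log2 fold change -0.60, SE 0.36, limma adjusted p = 0.246), but was called lower when control replicate 2 was left out. The share of genes called was 60.0% for H1, 53.8% for H2B, 16.7% for H3 and 22.2% for H4, against 12.2% of all genes, and differences between types were not tested.

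**Figure D3:**
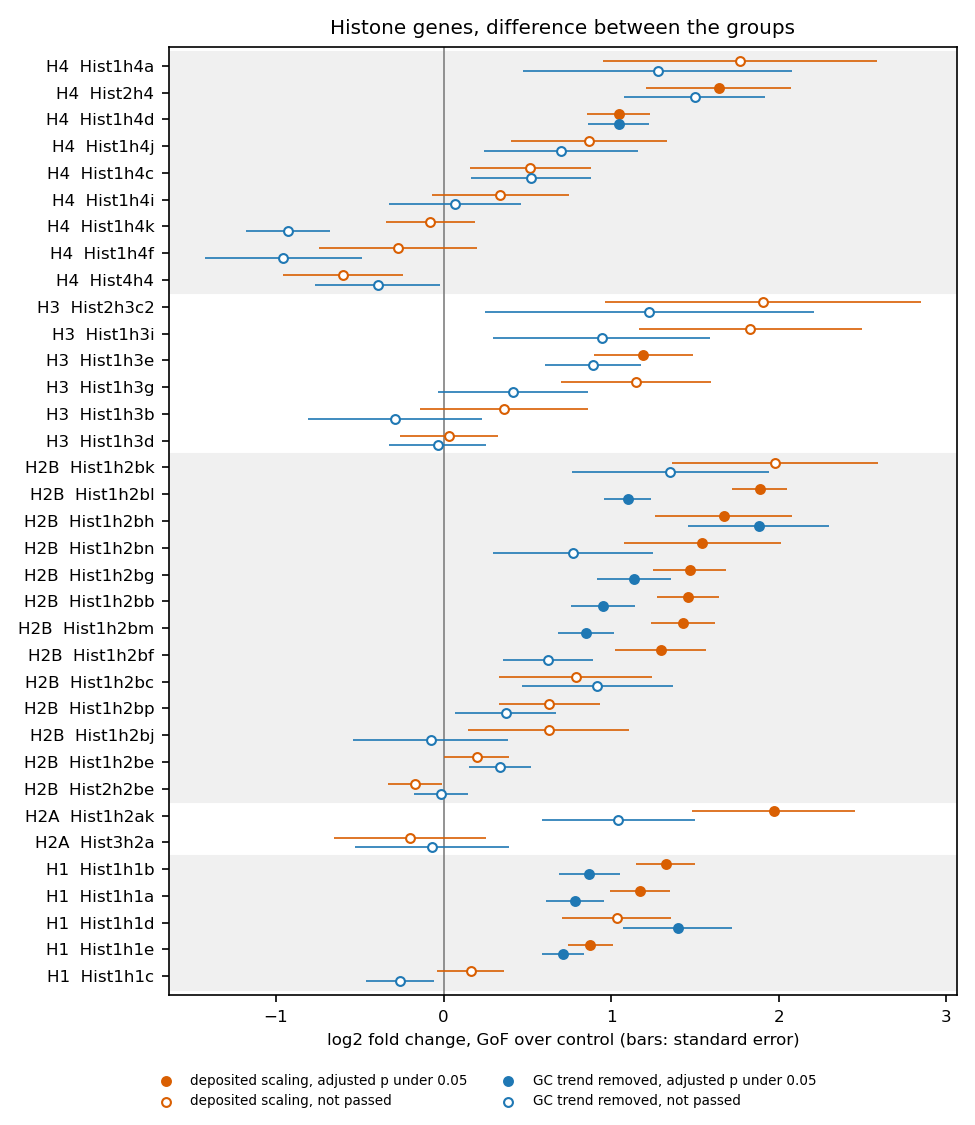
Log2 fold change of GoF over control for each histone gene with its standard error, from limma on the deposited scaling (orange) and with the trend on GC content removed from each library (blue), where filled points have an adjusted p under 0.05. With the trend removed, 10 genes keep or reach the threshold against 14 before, and most blue points lie left of the orange ones.

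The histone genes are rich in G and C, and GC content moved with the group across all genes. By the longest annotated transcript, 13 of the 35 genes fell in the highest of 10 equal bins (56.9% to 73.7% GC), where 40.3% of all genes were higher and the median log2 fold change was 0.66. Of these 13 genes 5 were higher, with a median of 1.43. By coding sequence, 30 of the 35 genes fell in the highest bin (60.5% to 83.0%), where 27.9% of all genes were higher with a median of 0.51, and of these 30 genes 11 were higher with a median of 1.04. The 4 histone genes between 44.6% and 46.5% GC, where 3.26% of all genes were higher, had a median of 0.01 and none was called. Their coding sequences had 57.1% to 64.0% GC. Of the 2 histone genes between 42.7% and 44.6%, where 1.41% of all genes were higher, 1 was called, Hist1h2bh. Hist1h1d, in the lowest bin, had a log2 fold change of 1.03 and was not called. Across the 35 genes the log2 fold change and the GC content of the transcript had a Spearman rho of 0.42 and a Pearson r of 0.41, as a description of genes that share libraries and sequence. With the GC content of the coding sequence rho was 0.13 and r 0.16.

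When the trend on transcript GC content was taken out of each library, 10 of the 35 genes were higher, against 3.11% of the 16266 genes then tested, and 0 were lower. The median log2 fold change fell to 0.77. By type, 4 H1, 5 H2B and 1 H4 genes were called, with 0 of H2A and H3. The lost calls were Hist1h2ak, Hist1h2bf, Hist1h2bn, Hist1h3e and Hist2h4, and Hist1h1d was gained. With the trend removed the log2 fold change of Hist2h4 was 1.5 (1.64 before), while that of Hist1h2ak was 1.04 (1.97 before), of Hist1h2bf 0.62 (1.30), of Hist1h2bn 0.77 (1.54) and of Hist1h3e 0.89 (1.19). Taking out the trend on coding GC content, an alternative picked once values were known, left 6 genes higher, against 6.09% of 12780 genes, with a median of 0.61. These 6 were the H1 genes Hist1h1a and Hist1h1b and the H2B genes Hist1h2bb, Hist1h2bg, Hist1h2bl and Hist1h2bm. Hist1h1d was not among them (log2 fold change 0.56, limma adjusted p = 0.265), against 1.40 (0.0475) with the transcript GC trend removed. Its longest annotated transcript has 7425 bases and 39.8% GC, while its coding sequence has 62.6%, so its call depends on the GC content used. With a trend on transcript length removed instead, 16 genes were higher, against 10.8% of genes.

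Several genes no longer passed the threshold when 1 library was left out. Without GoF replicate 1, 8 of the 35 genes were higher, against 4.04% of all genes tested, and without GoF replicate 2 also 8, against 5.5%, while without GoF replicate 3 there were 12, against 8.11%. Either of the first 2 omissions lost Hist1h2ak, Hist1h2bf, Hist1h2bh, Hist1h2bn, Hist1h3e and Hist2h4, whose log2 fold changes were 1.06 to 1.97 without GoF replicate 1, against 1.19 to 1.97 with all libraries. Leaving out GoF replicate 3 lost Hist1h2bh and Hist1h2bn, leaving out control replicate 2 lost Hist1h2ak and Hist2h4, and leaving out control replicate 3 lost Hist1h2bn. Calls were gained as well: Hist1h2bc and Hist2h3c2 were higher without control replicate 2 (limma adjusted p = 0.0273 and 0.0196), and Hist1h2bk and Hist1h3i without control replicate 3 (0.0154 and 0.0172). Hist1h1a, Hist1h1b, Hist1h1e, Hist1h2bb, Hist1h2bg, Hist1h2bl, Hist1h2bm and Hist1h4d, 8 genes in all, were higher in each of the 5 fits without 1 library and also with the transcript GC trend removed. When that trend was removed from the libraries other than GoF replicate 1, 1 gene was called, Hist1h2bl. The median over the 35 genes of the log2 level above the control mean was 1.07 in GoF replicate 1, 1.13 in replicate 2 and 0.90 in replicate 3, with each GoF library well above the controls. GoF replicate 2 was above replicate 3 in 30 of the 35 genes, by a median of 0.33 on the log2 scale. The 2 controls were not ordered in this way, with replicate 2 above replicate 3 in 16 genes, but they differed more than 2-fold in 8 genes.

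**Figure D4:**
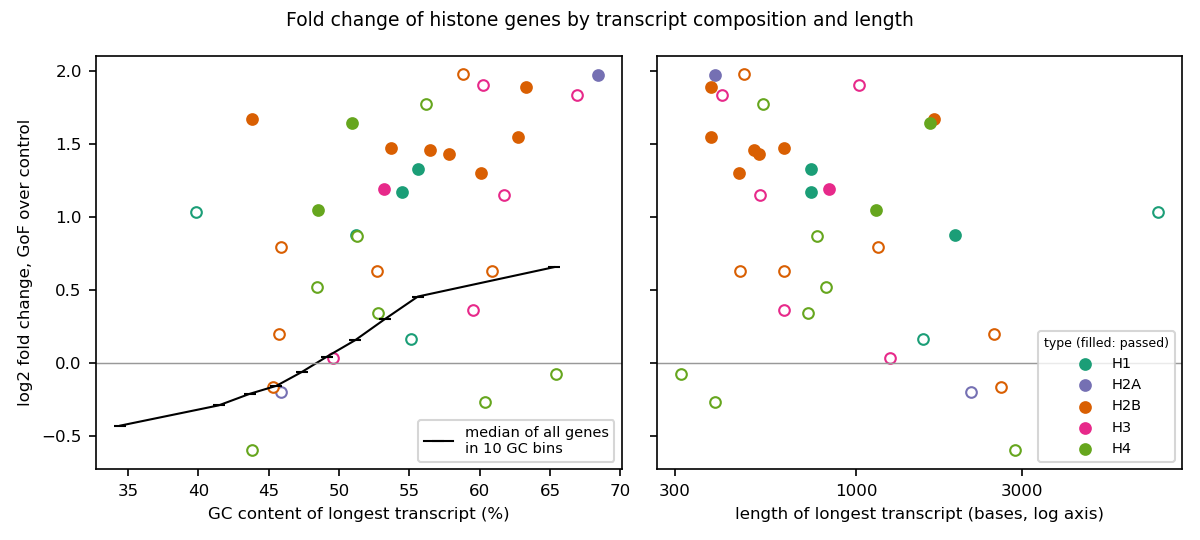
Log2 fold change of each histone gene against the GC content (left) and the length (right, log axis) of its longest annotated transcript, coloured by type and filled where called higher, with the median log2 fold change of all genes in 10 GC bins as a black line. Most histone genes lie above the line, and genes with transcripts under 1000 bases have a median of 1.25 against 0.79 for longer ones.

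Annotated length divided the genes in part. Genes whose longest annotated transcript was under 1000 bases numbered 22, of which 10 were higher with a median log2 fold change of 1.25. Among the 13 genes with transcripts of 1000 bases or more, 4 were higher with a median of 0.79. Of all genes tested, whatever their length, 12.2% were higher. The 2 sets also differ in GC content, with medians of 58.3% and 45.9%. In the GC bins that hold these medians, 40.3% and 3.26% of all genes were higher. With the transcript GC trend removed, the medians of the log2 fold changes of the 2 sets were 0.78 and 0.71. With the coding GC trend removed, which does not depend on the annotated 3′ end, they were 0.84 and 0.34. In that fit 6 and 0 genes of the sets were called higher, against 6.09% of all genes. The split at 1000 bases was made after values were seen and carries no test. Hist1h1c, Hist1h2be, Hist2h2be, Hist3h2a and Hist4h4, none of which passed, all belong to the longer set, as do Hist1h1e, Hist1h2bh, Hist1h4d and Hist2h4, which were higher.

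Promoters are shown for genes that were higher and for a gene that did not pass. RefSeq promoters (GRCm38.p6, 250 bases before to 50 after the start) were matched for 32 of the 35 genes, giving 33 windows. The searched motifs were TATAAA for the TATA box, the pentamer CCAAT, and ATTTGCAT for the octamer, an element known from H2B promoters and bound by Oct1. Each was searched on both strands, and matches are in capitals. Hist1h2bn and Hist1h2ak are a divergent pair that shares most of this window, so its TATA box, on the minus strand, reads in the direction of Hist1h2ak.
Hist1h2bb (higher, chr13:23746484-23746783, plus strand): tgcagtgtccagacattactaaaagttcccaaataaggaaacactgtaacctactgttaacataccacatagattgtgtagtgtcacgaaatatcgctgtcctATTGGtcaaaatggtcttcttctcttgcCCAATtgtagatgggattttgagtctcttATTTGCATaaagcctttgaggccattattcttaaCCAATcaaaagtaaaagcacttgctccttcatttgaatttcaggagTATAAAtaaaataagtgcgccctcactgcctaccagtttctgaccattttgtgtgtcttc
Hist1h2bn (higher, chr13:21753826-21754125, plus strand): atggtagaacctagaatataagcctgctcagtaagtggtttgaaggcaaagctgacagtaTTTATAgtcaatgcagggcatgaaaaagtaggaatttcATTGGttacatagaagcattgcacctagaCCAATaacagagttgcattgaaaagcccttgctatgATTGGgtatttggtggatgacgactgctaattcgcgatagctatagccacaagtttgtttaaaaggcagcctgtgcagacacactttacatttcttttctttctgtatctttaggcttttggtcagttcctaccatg
Hist1h2be (not passed, chr13:23585921-23586220, minus strand): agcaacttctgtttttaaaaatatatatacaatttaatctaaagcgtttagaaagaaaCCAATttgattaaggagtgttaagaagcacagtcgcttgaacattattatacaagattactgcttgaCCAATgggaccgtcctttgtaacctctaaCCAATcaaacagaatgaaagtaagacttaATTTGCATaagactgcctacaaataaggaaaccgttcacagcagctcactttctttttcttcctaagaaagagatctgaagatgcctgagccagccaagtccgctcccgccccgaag

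CCAAT stood in 28 of the 33 histone windows (84.8%), against 37.4% of 32851 RefSeq promoters, and TATAAA in 20 (60.6%), against 13.6%. The octamer stood in 6 windows (18.2%), against 1.74%, and 5 of these were of the 12 H2B windows. CCAAT was found in all 12 H2B windows but in 3 of 8 H4 windows. Of the 13 windows of genes called higher 13 held CCAAT, 9 TATAAA and 3 the octamer, and of the 20 windows of genes not passed 15 held CCAAT, 11 TATAAA and 3 the octamer. The windows shown for Hist1h2bb and Hist1h2be both hold CCAAT and the octamer, and the genes differ in call. These matches describe letters in the windows, not bound sites.

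Genes that act on histone messages and proteins were followed in lists chosen with earlier results known. Of 22 tested genes for 3′ end processing and transcription of histone messages 5 were higher (22.7%, against 12.2% of all genes) and 3 lower, with a median log2 fold change of 0.18. Lsm10, a subunit of the U7 particle that cuts histone messages, had 29.3 and 27.5 normalized counts in the controls, against 76.9, 89.0 and 75.2 in the GoF libraries (log2 fold change 1.47, limma adjusted p = 0.0114). Sympk, a scaffold of the cleavage complex, and Srrt, which links it to the cap-binding complex, were higher by log2 fold changes of 0.76 and 0.75 (limma adjusted p = 0.00389 and 0.00896). Casp8ap2, known as FLASH and needed at histone loci for processing, was lower, with 24611.8 and 19939.8 in the controls, against 14056.2, 14674.0 and 13633.2 in the GoF libraries (log2 fold change -0.65, limma adjusted p = 0.00632). Slbp, named after its values were seen, had 1891.2 and 1624.7 in the controls, against 1788.3, 1757.6 and 1861.6 in the GoF libraries (log2 fold change 0.04, limma adjusted p = 0.792). With the transcript GC trend removed, 1 gene of this list was higher and 0 lower of 21 tested, against 3.11% and 3.33% of all genes. Lsm10, Sympk, Srrt and Casp8ap2 did not pass there. Without GoF replicate 1, 2 genes of the list were higher and 1 lower, against 4.04% and 3.3% of all genes.

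Of 19 genes of histone message decay 2 were higher (10.5%, against 12.2% of all genes) and 5 lower (against 10.9% of all genes), with a median log2 fold change of 0.09. Upf1, the helicase recruited to histone messages when replication stops, was higher (log2 fold change 0.83, limma adjusted p = 0.0104). Eri1, the exonuclease that trims the stem-loop end, the exonuclease gene Xrn1 and Smg1, the kinase of Upf1, were lower, by log2 fold changes of -0.32, -0.41 and -0.30 (limma adjusted p = 0.0252, 0.0149 and 0.0241). None of the 15 genes of this list that could be fitted with the GC trend removed passed in either direction. Over all genes 3.11% were then higher and 3.33% lower. Without GoF replicate 1 the counts were 1 higher and 0 lower, against 4.04% and 3.3% of all genes.

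Of 49 genes of S phase and DNA replication 9 were higher and 1 lower, 18.4% higher against 12.2% of all genes, with a median log2 fold change of 0.13. Gins2, a subunit of the replicative helicase, had 428.0 and 292.0 normalized counts in the controls, against 943.4, 1024.0 and 800.1 in the GoF libraries. Its groups were well apart (log2 fold change 1.37, SE 0.19, limma adjusted p = 0.005), also with the GC trend removed (adjusted p = 0.0263). Gins4, of the same complex, was higher by 0.68 and kept the call with the trend removed (limma adjusted p = 0.00968 and 0.0332). Mcm2, a subunit of the helicase ring that also carries histones, and the transcription factor gene E2f2 were higher by 0.62 and 1.17 on the log2 scale (limma adjusted p = 0.00876 and 0.0176), but not with the trend removed (0.0521 and 0.147). With the trend removed 2 genes of the list were higher, against 3.11% of all genes. Without GoF replicate 1 there were 4, against 4.04% of all genes.

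Of 23 histone chaperones and import factors 7 were higher (30.4%, against 12.2% of all genes) and 4 lower (against 10.9%). Chaf1a, the large subunit of the factor that deposits new H3 and H4 behind the replication fork, had 385.8 and 355.6 normalized counts in the controls, against 697.3, 841.2 and 617.3 in the GoF libraries (log2 fold change 0.94, SE 0.16, limma adjusted p = 0.00802, or 0.0408 once the GC trend was removed). Hjurp, the chaperone of the centromeric H3 variant, was higher by 0.47 and also kept its call (limma adjusted p = 0.00729 and 0.0312). Tonsl, which reads newly made H4, was higher by 0.66 and did not pass once the GC trend was removed (limma adjusted p = 0.0107 and 0.617), and Atrx, a remodeller that acts with an H3.3 chaperone, was lower by a log2 fold change of -0.65 (0.00533 and 0.0589). With the trend removed 4 were higher and 0 lower, against 3.11% and 3.33% of all genes. Without GoF replicate 1 the counts were 5 and 1, against 4.04% and 3.3% of all genes.

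Replacement histones are made outside S phase as well and mostly from polyadenylated messages. Of 11 genes tested 3 were higher (27.3%, against 12.2% of all genes) and 0 lower, with a median log2 fold change of 0.16. H2afz, which encodes H2A.Z, had 8735.1 and 7381.2 normalized counts in the controls, against 11280.4, 12152.1 and 10118.7 in the GoF libraries. The groups did not overlap, and the call was kept with the GC trend removed (log2 fold change 0.47 and 0.48, limma adjusted p = 0.0193 and 0.0379). H2afx and H2afy2 were higher by 0.81 and 0.38 (limma adjusted p = 0.0173 and 0.0363), and with the trend removed by 0.06 and 0.01 without passing (0.842 and 0.972). With the coding GC trend removed 0 of 10 genes were higher and 2 lower, against 6.09% and 7.72% of all genes. The log2 fold change of H2afz was then 0.29 without passing. Without GoF replicate 1, 2 of the 11 replacement histone genes were higher, against 4.04% of all genes. A difference between replacement and replication-dependent histones was not tested.

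Summed levels of some marker lists also differed between the groups, and their part in the histone result was not tested. Over 7 of 7 blood markers the summed level was 11068.3 and 6898.3 normalized counts in the controls, against 13799.7 to 17661.4 in the GoF libraries. Most of it came from Hba-x, with 8667.1 and 4824.3 in the controls, against 11272.0 to 14477.9. Of the 7 markers 2 were higher (28.6%, against 12.2% of all genes) and 0 lower. With the GC trend removed 0 were higher and 1, Alas2, lower (against 3.11% and 3.33% of all genes). Over 9 of 9 markers of pharyngeal endoderm and epithelium the summed level was 4987.8 and 4230.3 in the controls, against 6300.0 to 6645.5 in the GoF libraries. Of these 9 markers 4 were higher (44.4%, against 12.2% of all genes) and 1, Nkx2-1, lower (against 10.9%). With the GC trend removed 0 were higher and 1 lower, and the median log2 fold change was -0.002. Over 8 of 9 cardiomyocyte markers the summed level was 282469.2 and 390394.8 in the controls, against 183624.5 to 232691.7 in the GoF libraries. Most of it came from Ttn, the gene of the giant sarcomere protein titin, with 229066.7 and 328088.3 in the controls, against 121492.3 to 170198.7. Of the 8 tested cardiomyocyte markers 2 were higher and 1, Ttn, lower, with a median log2 fold change of 0.17. For the liver bud markers, 4 of 7 had values, and the groups overlapped. Their summed level was 616.7 and 8.7 in the controls, against 267.7 to 393.2 in the GoF libraries, which lay between the controls.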

How the data were processed

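The authors' deposited table gives for each gene a signal per library (a normalized count) and, from the authors' comparison, a log2 fold change, a score and p-values. The submitters' processing notes list the build mm10 and the tools STAR 2.5.2, HTSeq and DESeq2. The annotation and strand setting behind the counts were not given in the sources used, so reads of antisense and overlapping genes cannot be told apart. Within each library every deposited signal was a whole multiple of 1 step (tolerance 0.001, 100% of values), so the whole reads could be recovered. The deposited fold changes and p-values served only for the count of calls in the authors' own comparison.

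With limma 3.58.1 (R 4.3.3, trend and robust options), log2(normalized count + 1) was modelled on the group over all genes with a mean of at least 10, with Benjamini-Hochberg adjustment and a threshold of 0.05. This is the test the design gave for normalized values. As alternatives, DESeq2 1.42.0 and edgeR 4.0.16 were run on these reads. GC content and length were those of the longest GENCODE M21 transcript, found for 96.9% of genes, and trends were removed as a lowess curve (span 0.3) per library. Removing a trend also removes any change that follows it. Since amplified reads had no molecular identifiers, no counting intervals are given.

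Genes and lists were chosen with earlier results of these data known. In each histone type the 3 most abundant genes and up to 3 called genes with the largest fold change per direction are named, and in each related list up to 4 called genes with the lowest adjusted p, or the 2 most abundant where none was called. Other genes named by the text were chosen after their values were seen.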

Additional observations from a re-analysis of the deposited data

How the results depend on the processing

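With 2 controls the tests rest on few degrees of freedom, low counts limit 14 genes, and identical copies share reads. Over 20 alternatives the number of histone genes higher in GoF stayed within 1.5 times 14 except in these. It was 6 with the coding GC trend removed, 8 without GoF replicate 1 and also 8 without GoF replicate 2. It was 1 when GoF replicate 1 was left out of the fit with the transcript GC trend removed, and 1 with the replicate block and the GC trend removed. It ranged from 8 to 15 when each library was left out in turn. The number lower ranged from 0 to 1 in those fits and was 0 in all other settings.

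The median log2 fold change was 0.84 with GC and length trends removed, 0.77 with the GC trend removed, 0.73 with GoF replicate 1 left out as well, 0.73 with the replicate block and the GC trend removed, and 0.61 with the coding GC trend removed. It ranged from 0.90 to 1.08 when each library was left out in turn. The replicate numbers do not pair the samples by the labels, and same-numbered libraries had correlations of -0.037 and -0.035. With the replicate block 10 genes were higher and the median was 1.06, while 765 genes were higher in all against 2054 without it.

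Over all genes, 506 were higher and 542 lower with the GC trend removed, 58 and 77 with GoF replicate 1 also left out, and 73 and 90 with the replicate block and the GC trend removed. They were 451 and 442 with GC and length trends removed, 778 and 986 with the coding GC trend removed, 678 and 554 without GoF replicate 1, 923 and 800 without GoF replicate 2, and 1362 and 1194 without GoF replicate 3.

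Directions turned for these genes, and the cause was not tested. Hist1h1c was at -0.302 with GC and length trends removed, -0.26 with the GC trend removed, -0.306 with GoF replicate 1 also left out and with the block and the GC trend removed, -0.294 with the coding GC trend removed, and from -0.00304 to 0.331 with each library left out. Hist1h2be was at -0.267 with the coding GC trend removed and from -0.0799 to 0.474 with each library left out. Hist1h3d was at -0.0709 with GC and length trends removed, -0.0347 with the GC trend removed, -0.0863 with GoF replicate 1 also left out and with the block and the GC trend removed, -0.0887 with the length trend removed, -0.314 with the coding GC trend removed, -0.0368 with quantile normalization, -0.0191 with the replicate block, and from -0.245 to 0.309 with each library left out. Hist3h2a was at 0.0573 without GoF replicate 1 once the GC trend was removed and with the block and the GC trend removed, and from -0.912 to 0.51 with each library left out. H2afy2 was at -0.0405 with GC and length trends removed and -0.0102 without GoF replicate 1 once the GC trend was removed or with the block and the GC trend removed. Smg1 was at 0.109 with GC and length trends removed and 0.00976 with the length trend removed, and Xrn1 was at 0.0318 with GC and length trends removed. Of 337 values of the 17 histone genes named by rule, 255 kept direction and side of the threshold, 57 lost the threshold, 3 gained it and 22 turned.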

Other observations

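By position, 12 of the 35 histone genes lie in a cluster at chr13:21715763-22043676 and 18 in a cluster at chr13:23535422-23764406 (mm10). In the first, 5 genes were higher with a median log2 fold change of 1.38, and in the second 8 with a median of 1.04. Of all genes tested, 12.2% were higher. The clusters also differ in GC content of the transcripts, with medians of 59.85% and 53.45%. With the GC trend removed the medians of the log2 fold changes were 0.81 and 0.75, with 3 and 7 genes called, against 3.11% of all genes then higher. The 3 genes on chromosome 3 include 1 called gene, Hist2h4, and the single genes on chromosomes 6 and 11, Hist4h4 and Hist3h2a, did not pass. These are descriptions with no test.

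Few other RNAs without a poly-A tail had values: 5 of 31 listed were tested. Malat1, whose end is a protected triple helix, was lower, with 72265.5 and 74318.6 normalized counts in the controls, against 51692.5, 46203.6 and 56361.3 in the GoF libraries (log2 fold change -0.52, limma adjusted p = 0.00877, or 0.0898 once the GC trend was removed). Rn7sk, Snord118 and Rnu73b, named after their values were seen, did not pass (log2 fold change 0.66, 1.21 and 1.25, limma adjusted p = 0.0713, 0.0582 and 0.0787). Rn7sk had 189.9 and 324.4 in the controls, against 422.5, 412.5 and 351.1 in the GoF libraries. Snord118 had 19.9 and 20.0 in the controls, against 56.4, 56.6 and 33.2 in the GoF libraries. Rnu73b had 11.7 and 27.5 in the controls, against 43.1, 51.8 and 38.8 in the GoF libraries. Every GoF library lay above both controls in all 3 genes, as in 27.3% of all genes tested. With the length trend removed 3 of the 5 RNAs were higher and 1 lower, against 10.8% and 11.1% of all genes. With DESeq2 1 was higher, against 13.2% of all genes.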
